A study of Mus musculus with 4 samples.

Results

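Integrins are the cell surface receptors that hold a cell to its extracellular matrix, and laminins are among the proteins of that matrix which integrins bind. The genes of both families were read here in mouse embryonic fibroblasts (MEFs) with and without the cyclins G1 and G2. Members were taken by name, as every gene on the array whose symbol is that of an integrin alpha chain (Itga), an integrin beta chain (Itgb and a digit) or a laminin chain (Lama, Lamb or Lamc and a digit). The names gave 36 genes, 26 integrins and 10 laminins, of 31806 on the array, read by 48 of 39397 probes. The array carries the laminin beta 1 chain as Lamb1-1, which lies outside this naming and is given separately.

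Total RNA was taken from MEFs of C57BL/6J mice in logarithmic growth, 1 preparation for each of 4 single-colour arrays. DKO MEFs carry CycG1-/- CycG2-/- and G2KO MEFs carry CycG2-/-; each knockout array has its own wild type (WT) array, and all 4 lay on 1 slide and were scanned together. In the mice the whole coding part of Ccng1 was removed in every cell, so the loss is not limited to fibroblasts. With 1 array per group, no ratio has a replicate check or a test, and this number of arrays is what limits how precise each value is.

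An integrin is a pair of chains, 1 alpha and 1 beta. The alpha chain largely sets which ligand is bound, and the beta1 chain has the most partners, among them the receptors for collagen, for laminin and for fibronectin. A laminin is built of an alpha, a beta and a gamma chain. Laminins form the sheet of the basement membrane, where the alpha chain carries the main sites that integrins and dystroglycan bind.

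Signals are given as multiples of the 75th percentile of all gene spots of the same array and are called relative signals. A probe is called dim where the scanner software did not find it well above background. A ratio against a dim probe is a limit, written as "at least". It sets the dim probe at its own signal or at the faintest signal that still passed on its array, whichever is higher. Relative signals of different probes are not compared with each other, because probes bind with different strength.

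The arrays of the G2KO comparison are called the G2KO-labelled and the WT-labelled array, and the WT array of DKO the DKO-matched WT array or, beside a DKO value, its WT. Labels were checked on the deleted genes. Ccng1 was dim on the DKO array and had a relative signal of 1.66 on its WT array, a difference of at least 228-fold. Ccng2 was between 0.0619 and 0.104 on the 4 arrays, so its probe did not separate the genotypes. Xist, which only a female cell makes, was at 1.13 on the WT-labelled array and dim on the other 3, where the Y-linked Ddx3y and Eif2s3y were well above background. The spread of log2 ratios was taken over probes that were not dim on any of the 4 arrays, so it leaves out Xist. The SD was 0.535 between the G2KO-labelled array and the DKO-matched WT array. It was 0.859 between the G2KO-labelled array and its own WT, and 1.01 between both WT arrays. The direction of large changes between the arrays of the G2KO comparison, as labelled, is also opposite to the one the study lists for G2KO MEFs. The methods describe that list's comparison as dye-swapped, so it may come from other arrays than these single-colour ones. The 2 labels of the G2KO comparison may thus be exchanged, which was not tested, and its arrays are named by their label only. Below, "the WT arrays" means the 2 arrays labelled WT, and a difference between them need not be one between wild types. Counts between them are given against the DKO-matched WT array too.

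Several integrin alpha chains stood far lower in DKO MEFs than in their WT. At least 4-fold lower than on the WT array were Itga1, Itga4, Itga6, Itga7, Itga8, Itga9 and Itga11, together with the laminin chains Lama2 and Lama4. At least 4-fold higher were Itgb4, Lama5 and Lamc3. Of the 32 members compared, 9 were lower and 3 higher, or 37.5%, while 8.07% of all genes compared passed this fold in either direction (4.04% higher, 4.03% lower). The median log2 ratio of the members was -0.40, beside 0.03 over all genes. RNA came from whole cultures, so fewer cells of a type and less RNA per cell cannot be told apart.

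**Figure D1:**
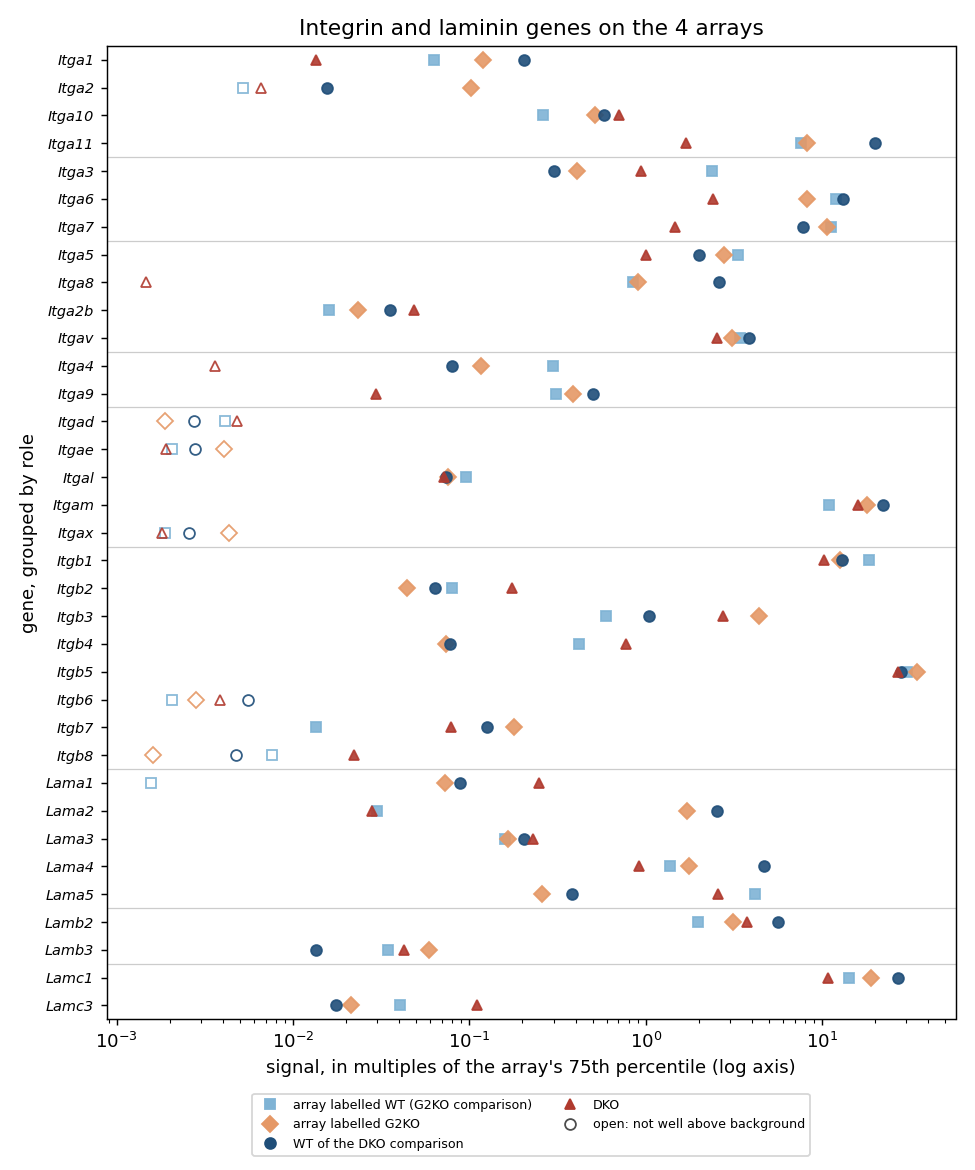
Relative signal of integrin and laminin genes on each array, on a log axis, with genes in rows by role; open symbols are dim. Within a row, the DKO triangle lies far to the left of the other arrays for Itga8, Itga4, Itga9 and Itga1, and at Lama2 and Lama5 it lies next to the WT-labelled array.

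Against all 3 other arrays at once, 6 members were at least 4-fold lower on the DKO array, namely Itga1 (at 1 of its 2 probes), Itga4, Itga7, Itga8, Itga9 and Itga11. These are 18.75% of the 32 members with signal, and 1.2% of the 24495 genes with signal met the same condition. All 6 encode alpha chains that pair with beta1, as do all alpha chains with signal except Itga2b, Itgal and Itgam. That grouping was made after the values were seen. No member was at least 4-fold higher on the DKO array than on each of the others, as 2.48% of genes were. Since the WT-labelled array and the G2KO-labelled array take the same place in this condition, it does not depend on which of their labels is right.

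To show the DNA in front of the genes concerned, the RefSeq promoter entries (GRCm38.p6) of Itga8, Itga11 and Itga4, which were lower on the DKO array than on all others, and of Lama5, which was higher in DKO than in its WT, are printed up to the outermost annotated start of the gene. The table held entries for 22 of the 36 members. Capitals mark GGGCGG on either strand, the core of the GC box that Sp1 binds.
Itga8, chr2:12301986-12302194, minus strand: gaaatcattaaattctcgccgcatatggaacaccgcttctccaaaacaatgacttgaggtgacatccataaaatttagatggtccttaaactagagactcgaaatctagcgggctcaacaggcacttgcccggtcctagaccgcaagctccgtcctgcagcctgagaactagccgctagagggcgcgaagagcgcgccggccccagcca
Itga11, chr9:62677605-62677854, plus strand: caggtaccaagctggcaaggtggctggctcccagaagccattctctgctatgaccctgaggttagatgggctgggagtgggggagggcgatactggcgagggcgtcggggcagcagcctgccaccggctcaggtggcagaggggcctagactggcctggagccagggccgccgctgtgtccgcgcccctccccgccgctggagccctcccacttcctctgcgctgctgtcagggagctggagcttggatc
Itga4, chr2:79255176-79255425, plus strand: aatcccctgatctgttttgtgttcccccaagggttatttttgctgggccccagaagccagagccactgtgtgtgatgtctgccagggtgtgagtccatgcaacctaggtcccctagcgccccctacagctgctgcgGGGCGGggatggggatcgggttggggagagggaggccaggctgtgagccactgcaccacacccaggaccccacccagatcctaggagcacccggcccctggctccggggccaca
Lama5, chr2:180225905-180226109, minus strand: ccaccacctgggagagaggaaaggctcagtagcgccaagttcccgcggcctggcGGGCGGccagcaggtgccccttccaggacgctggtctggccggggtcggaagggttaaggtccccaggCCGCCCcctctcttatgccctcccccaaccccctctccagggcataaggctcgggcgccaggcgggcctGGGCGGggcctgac

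The GC box core had 3 matches in the Lama5 window, 1 in the Itga4 window and 0 in those of Itga8 and Itga11. Among 32851 promoter entries cut to the same lengths, it was found in 25.6% of windows of 205 bases, 26.5% of 209 bases and 32.7% of 250 bases. The letters TGANTCA (the AP-1 motif), CATTCC (the TEAD motif) and CCAAT, searched on both strands, had 0 matches in all 4 windows. Of all promoter windows of 250 bases, 6.75% held TGANTCA, 12.6% CATTCC and 33.8% CCAAT. A match is a description of the letters, and no match says only that these letters are not in the window.

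Itga8, the alpha chain of a receptor for nephronectin and fibronectin, had the largest difference of any member between DKO and WT MEFs. Its relative signal was 0.908 on the G2KO-labelled array, 0.851 on the WT-labelled array, 2.61 on the DKO-matched WT array, and dim on the DKO array. It was at least 357-fold lower in DKO than in its WT, and at least 117-fold lower than on the WT-labelled array. The 3 arrays with signal lay within 3.06-fold of each other. The study itself lists Itga8 for DKO MEFs from these arrays, so its direction is no independent evidence. Its single probe (mm9 chr2:12028462-12028521) begins, in the 30 bases shown, with
Itga8 probe, transcript position 5547: catacattggtattctcgaggagtctatct

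The collagen receptors Itga1 and Itga11 both stood lower on the DKO array. Itga11, the receptor of fibroblasts for fibrillar collagen, was at 8.17 on the G2KO-labelled array, 7.54 on the WT-labelled array, 1.70 in DKO and 19.9 in its WT. The DKO array was 11.7-fold below its WT, 4.43-fold below the WT-labelled array and 4.80-fold below the G2KO-labelled array. Itga1, which favours the collagen of basement membranes, was at 0.120, 0.0629, 0.0134 and 0.205 in the same order of arrays. It was 15.3-fold lower in DKO than in its WT, where the WT arrays differed 3.26-fold.

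The 2 probes of Itga1 did not give the same picture, so both are shown by their first 30 bases.
Itga1 probe, transcript position 683 (mm9 chr13:115821387-115825525): ttgggagagagagatcaatgccttgtgtga
Itga1 probe, transcript position 3710 (mm9 chr13:115756765-115758419): tcataaaagcacatttttccagcttaaatc
The values above are those of the probe at position 3710. At position 683 the DKO-matched WT array stood alone, with a relative signal of 0.410 against 0.0145 on the G2KO-labelled array and 0.0110 on the WT-labelled array, and DKO was dim. Both probes were lower in DKO than in its WT, by 15.3-fold at position 3710 and at least 56.1-fold at position 683. Between the WT arrays they gave 3.26-fold and 37.2-fold, so the level of Itga1 on the arrays of the G2KO comparison depends on the probe. The place of Itga1 among the 6 genes above does too, since at position 683 the limits were at least 1.51-fold below the WT-labelled array and at least 1.99-fold below the G2KO-labelled array.

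Of the other collagen receptors, Itga10, the chain of cartilage cells, differed at most 2.70-fold between any of the 4 arrays, and 2.91-fold at its second probe. Itga2, the receptor of platelets and epithelia, was at 0.102 on the G2KO-labelled array and 0.0155 on the DKO-matched WT array, and was dim on the others. It was the only member at least 4-fold higher on the G2KO-labelled array than on each other array, a condition that 0.347% of genes met. The G2KO-labelled array was 6.58-fold above the DKO-matched WT array and at least 14.3-fold above the WT-labelled array.

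The laminin receptors split. Itga6 and Itga7 were lower on the DKO array than on all others, and Itga3 was not. Itga7, the chain found chiefly in muscle, was at 10.6 on the G2KO-labelled array, 11.2 on the WT-labelled array, 1.47 in DKO and 7.75 in its WT. DKO lay 5.27-fold below its WT, and the other 3 arrays were within 1.45-fold of each other. Itga6, which pairs with beta1 or beta4, was at 8.22, 12, 2.41 and 13.1, or 5.43-fold lower in DKO than in its WT. Against the G2KO-labelled array it was 3.42-fold lower, which keeps it out of the 6 genes above.

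Itga3, the chain that favours the laminins with the alpha 3 or alpha 5 chain, followed another order. Its relative signal was 0.409 on the G2KO-labelled array and 0.301 on the DKO-matched WT array, 0.935 in DKO and 2.37 on the WT-labelled array. The WT arrays differed 7.87-fold at this gene, more than the 3.11-fold by which DKO was above its WT. Against the WT-labelled array, DKO was 2.53-fold lower at Itga3, so the direction turned with the WT array.

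Itga4 and Itga9 encode the closely related chains that bind VCAM-1 and tenascin-C, among other ligands. Itga9 was at 0.389 on the G2KO-labelled array, 0.312 on the WT-labelled array, 0.0295 in DKO and 0.502 in its WT, 17.0-fold lower in DKO than in its WT. All 3 other arrays were within 1.61-fold of each other. Itga4 was at 0.117, 0.297 and 0.0801 on the G2KO-labelled array, the WT-labelled array and the DKO-matched WT array, and was dim in DKO, at least 11.0-fold below its WT and at least 40.6-fold below the WT-labelled array. A second Itga4 probe, at position 2292 of the transcript, was dim on all 4 arrays and gave no ratio.

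The fibronectin and vitronectin receptors besides Itga8 moved less. Itgav, the alpha chain shared by the receptors that release active TGF-beta, was at 3.1, 3.41, 2.54 and 3.85 on the G2KO-labelled array, the WT-labelled array, DKO and its WT. Its widest difference between any of these arrays was 1.51-fold, and 1.54-fold at its second probe. Itga5, the classic fibronectin receptor, was lowest in DKO, 3.31-fold below the WT-labelled array and 2.78-fold below the G2KO-labelled array. Itga2b, the platelet chain, stayed below 0.0486 on the other arrays and reached that value in DKO.

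In all, 12 alpha chains on the array are known to pair with beta1, a group put together after the values were seen, so its count is a description. Between DKO and its WT, 7 of them were at least 4-fold lower and 0 higher, with a median log2 ratio of -2.42. Against the WT-labelled array it was 7 of the 11 compared, where 3.82% of all genes were lower, and against the G2KO-labelled array 7 of 12, where 3.94% were. These 3 comparisons share the DKO array.

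**Figure D2:**
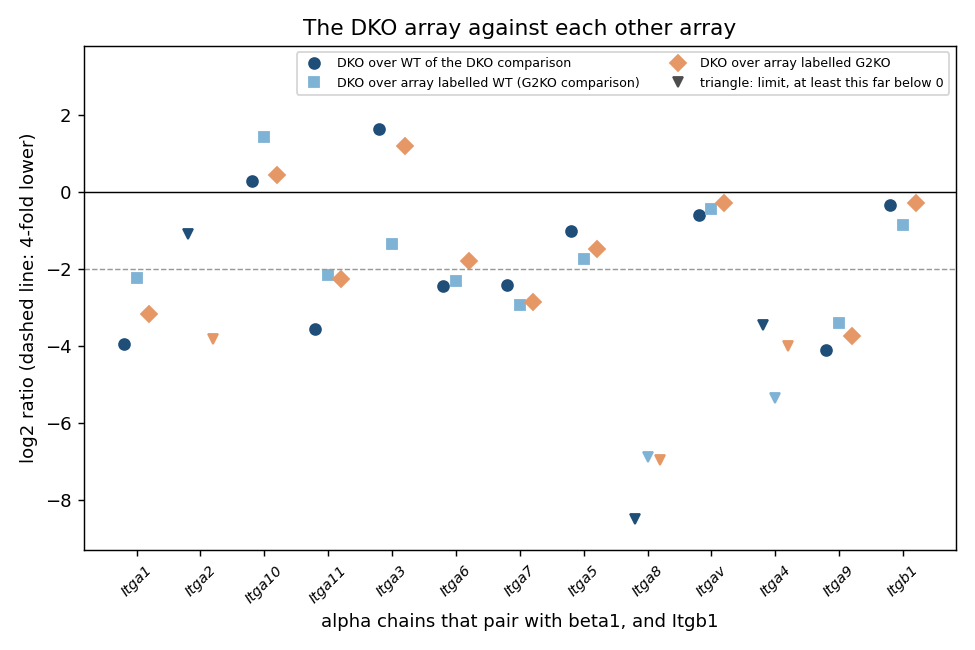
Log2 ratio of the DKO array to each of the 3 other arrays, for alpha chains that pair with beta1 and for Itgb1; triangles are limits, and the dashed line is 4-fold lower. For Itga1, Itga4, Itga7, Itga8, Itga9 and Itga11 all 3 symbols lie below the dashed line, while those of Itgb1 lie between -0.84 and -0.29.

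The shared partner of these chains did not follow them. Itgb1 was at 12.6 on the G2KO-labelled array, 18.4 on the WT-labelled array, 10.3 in DKO and 12.9 in its WT. DKO was 1.25-fold below its WT, less than the 1.42-fold between the WT arrays. A second Itgb1 probe gave a log2 ratio of -0.34 where the first gave -0.33.

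Among the other beta chains, Itgb4, Itgb2, Itgb3 and Itgb8 were higher in DKO than in its WT. Itgb4, the partner of Itga6 in the hemidesmosomes that anchor epithelia to laminin, was at 0.0736 on the G2KO-labelled array, 0.417 on the WT-labelled array, 0.770 in DKO and 0.0776 in its WT. It was 9.93-fold higher in DKO than in its WT, but 1.84-fold above the WT-labelled array. The WT-labelled array was itself 5.38-fold above the DKO-matched WT array.

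Itgb3, which with Itgav forms a vitronectin receptor, was at 4.41 on the G2KO-labelled array, 0.597 on the WT-labelled array, 2.74 in DKO and 1.05 in its WT. As labelled, the G2KO-labelled array and the DKO array were thus both above both WT arrays. This reading rests on the labels of the G2KO comparison, which may be exchanged. DKO was 2.61-fold above its WT, and the G2KO-labelled array was 7.38-fold above the WT-labelled array and 4.20-fold above the DKO-matched WT array. A second probe gave 3.12-fold, 7.64-fold and 5.10-fold for the same ratios.

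Itgb7 and Lama1 were the members at least 4-fold lower on the WT-labelled array than on each other array, as 1.29% of genes were. Itgb7, a partner of Itga4 and Itgae on lymphocytes, was low on the WT-labelled array alone, at 0.0136 against 0.178 on the G2KO-labelled array, 0.0782 in DKO and 0.126 in its WT. Itgb5, another partner of Itgav, ranged from 26.8 to 34.5 over the 4 arrays and had the smallest range of all members with signal, 1.29-fold. Itgb2, the beta chain of leukocytes, was highest in DKO at 0.174, 2.73-fold above its WT, and lay between 0.0444 and 0.0800 elsewhere. Itgb8, which binds latent TGF-beta with Itgav, was above background in DKO alone, at 0.0222.

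The chains known from leukocytes ranged from dim to bright. Itgad, Itgae and Itgax were dim on all 4 arrays, as was the epithelial chain Itgb6, and Itgal, well above background on all 4, lay between 0.0714 and 0.0962. Itgam, the alpha chain of macrophages and neutrophils, was read by 3 probes, of which those at positions 270 and 3410 of the transcript lay between 0.0291 and 0.0484 on all 4 arrays, while that at position 4431 lay between 11.0 and 22.2. Since the levels of different probes cannot be compared, the first 30 bases of each are shown instead, with runs of CA in capitals.
Itgam probe, transcript position 270: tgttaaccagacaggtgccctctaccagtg
Itgam probe, transcript position 3410: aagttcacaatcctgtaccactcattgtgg
Itgam probe, transcript position 4431: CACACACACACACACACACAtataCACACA
The bright probe opens with a CA run of 20 bases, and it was the only one of the 48 members' probes with a CA or TG run of 12 bases or more, which 0.398% of all probes on the array have. The part of this run in the signal was not tested. Leukocyte marker genes summed to relative signals between 1.25 and 3.87 per array, with Aif1, Tyrobp and Cd52 dim on all 4. Leaving Itgam out changed none of the counts and moved the median of the members between DKO and its WT to -0.33.

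**Figure D3:**
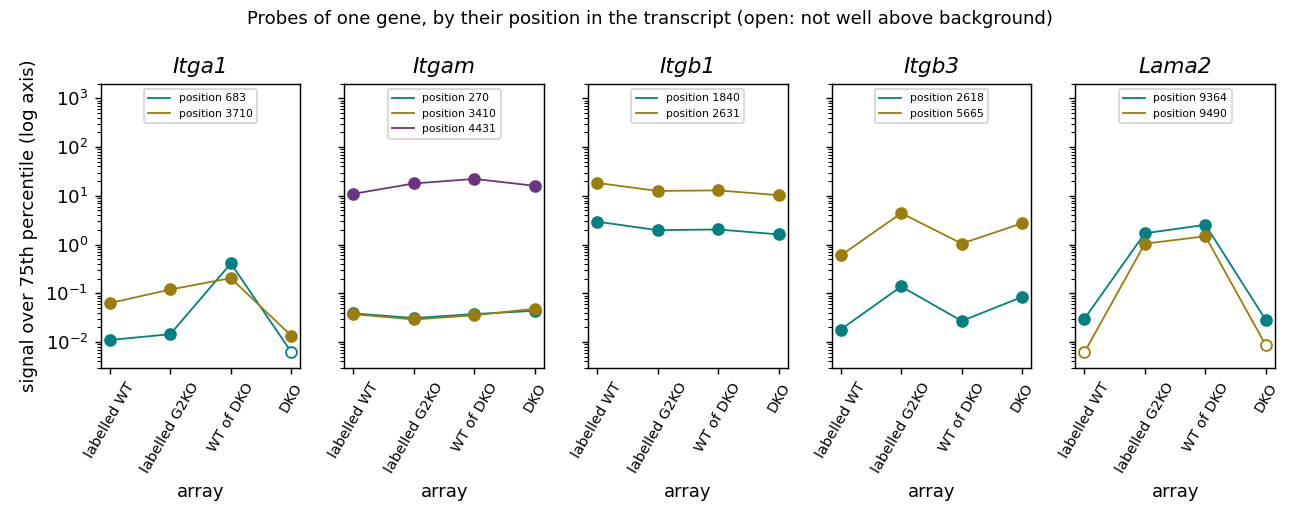
Relative signal of each probe of 5 genes on the 4 arrays, on a log axis; each line joins the values of 1 probe, named by its position in the transcript, and open points are dim. The probes of Itgb1, Itgb3 and Lama2 follow each other across arrays, those of Itga1 part on the arrays of the G2KO comparison, and the Itgam probe at position 4431 lies apart from the other 2.

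Lama2 and Lama5 were the laminin alpha chains with the largest differences on both sides. They differed about as far between the 2 arrays labelled WT as between DKO and its WT. Lama2, the chain of the basement membrane around muscle fibres and Schwann cells, was at 1.70 on the G2KO-labelled array, 0.0299 on the WT-labelled array, 0.0281 in DKO and 2.54 in its WT. DKO was 90.6-fold below its WT, and the WT-labelled array was 85.2-fold below the same array. DKO and the WT-labelled array differed 1.06-fold. Both probes of Lama2, shown by their first 30 bases, gave this order.
Lama2 probe, transcript position 9364 (mm9 chr10:26701380-26701439): cctgaccaccaacattaggttccgaggctg
Lama2 probe, transcript position 9490 (mm9 chr10:26701254-26701313): cccgactacctaataaagatagttcaatcc
At position 9490 the DKO array and the WT-labelled array were both dim, with limits of at least 174-fold for DKO below its WT and at least 207-fold between the WT arrays.

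Lama5, the alpha chain of most adult epithelial and endothelial basement membranes, ran the other way. It was at 0.257 on the G2KO-labelled array and 0.382 on the DKO-matched WT array, where Lama2 was high, and at 4.17 on the WT-labelled array and 2.58 in DKO, where Lama2 was low. DKO was 6.75-fold above its WT, less than the 10.9-fold by which the WT-labelled array was above the same array. Against the WT-labelled array, DKO was 1.62-fold lower, so the direction turned. Its probe (mm9 chr2:179911079-179911138) opens with
Lama5 probe, transcript position 11327: tttgttcctcctgcccaacaactgtcagta

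Lama4, the chain of vessels, fat and mesenchyme, was at 1.76 on the G2KO-labelled array, 1.38 on the WT-labelled array, 0.912 in DKO and 4.67 in its WT. It was 5.12-fold lower in DKO than in its WT and 1.51-fold lower than on the WT-labelled array. Lama1, the main alpha chain of the early embryo, was dim on the WT-labelled array and at 0.0728 on the G2KO-labelled array, 0.247 in DKO and 0.0888 in its WT. Lama3 varied by 1.44-fold at most over the 4 arrays.

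The beta and gamma chains that most laminins share were bright on all 4 arrays and stayed within 4-fold. Lamc1, the usual gamma chain, was at 19.0, 14.2, 10.8 and 27.0 on the G2KO-labelled array, the WT-labelled array, DKO and its WT, or 2.49-fold lower in DKO. Lamb1-1, the usual beta chain, was at 33.3, 33.9, 20.2 and 36.9 in the same order, or 1.83-fold lower. Lamb2, found at the neuromuscular junction and in the kidney, differed at most 2.82-fold between any of the arrays.

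Lamc3 and Lamb3, chains of rarer laminins, were higher in DKO than in its WT. Lamc3 was at 0.0212 on the G2KO-labelled array, 0.0405 on the WT-labelled array, 0.111 in DKO and 0.0174 in its WT, or 6.35-fold higher in DKO. Lamb3, a beta chain of the laminin of the skin, was 3.14-fold higher in DKO than in its WT. The DKO-matched WT array was the lowest of the 4 arrays at this gene, and DKO lay 1.22-fold above the WT-labelled array.

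**Figure D4:**
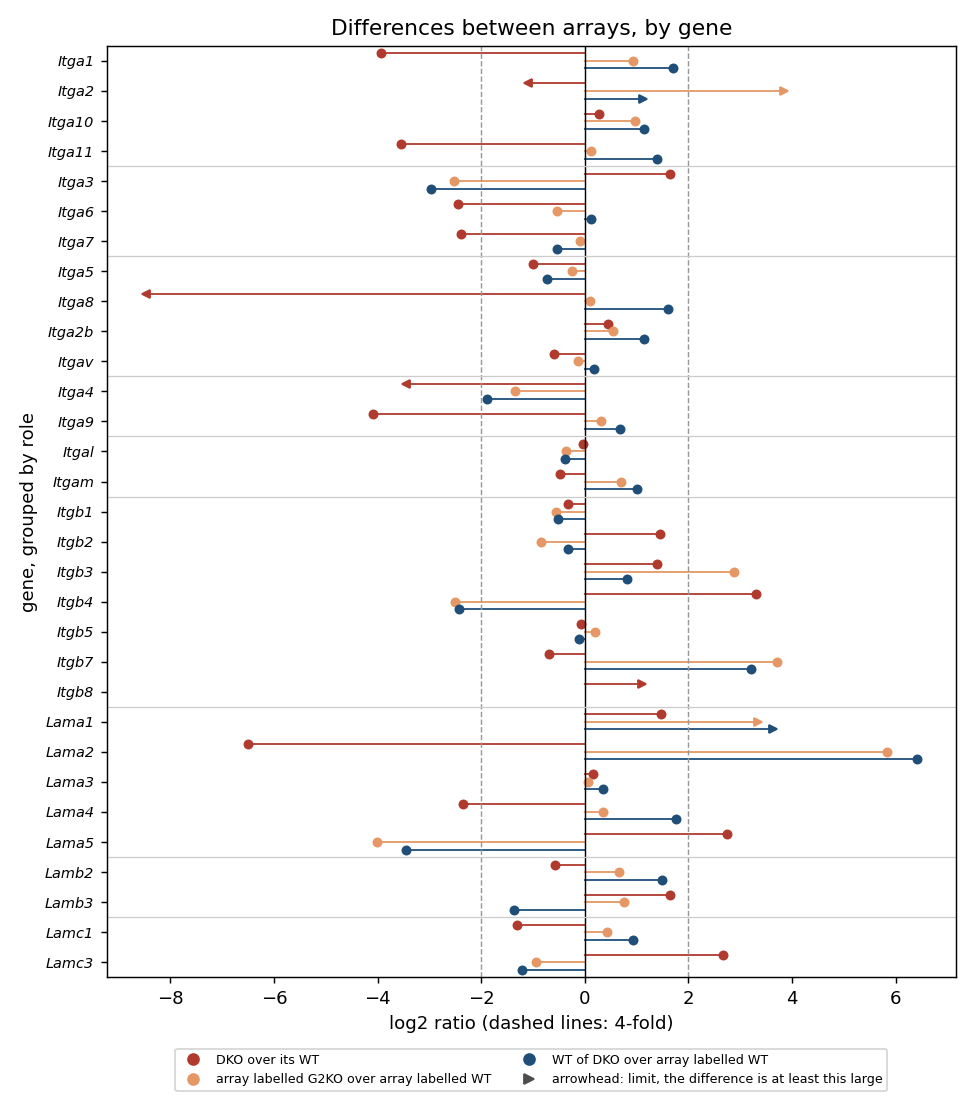
Log2 ratios of members with signal in 3 comparisons, with genes in rows by role; arrowheads are limits and dashed lines mark 4-fold. At Itga8, Itga9, Itga11 and Itga7 the ratio between DKO and WT is far longer than that between the WT arrays. At Lama2, Lama5 and Itga3 both ratios are opposite in sign, and past 4-fold except that of DKO at Itga3. Both ratios share the DKO-matched WT array, which favours opposite signs but does not fix them.

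Between the G2KO-labelled array and the WT-labelled array, 5 members were at least 4-fold higher and 3 lower of 31 compared, with 5.73% of all genes past this fold either way (3.71% higher, 2.02% lower). Itga2, Itgb3, Itgb7, Lama1 and Lama2 were higher, and Itga3, Itgb4 and Lama5 were lower. When the G2KO-labelled array was set against the DKO-matched WT array, Itga2 and Itgb3 kept their 4-fold difference and Lamb3 joined them at 4.35-fold, with 0 members lower; of all genes, 2.3% passed this fold (0.911% higher, 1.39% lower). Lama2, at 57.1-fold in the first comparison, was 1.49-fold lower in the second.

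The WT-labelled array and the DKO-matched WT array differed at least 4-fold at 6 of the 31 members compared, with 3 higher and 3 lower on the latter, and at 7.39% of all genes (4.63% higher, 2.76% lower). Itgb7, Lama1 and Lama2 were higher, and Itga3, Itgb4 and Lama5 lower. All 6 were also past 4-fold in the comparison labelled G2KO, in the same direction; both comparisons share the WT-labelled array. Of the 12 members past 4-fold between DKO and its WT, 11 differed more there than between the WT arrays, Lama5 being the exception, and Lama2 exceeded it by little. These 12 were picked for a large ratio between DKO and its WT, so a larger ratio there was likely from the start. Both ratios also share the DKO-matched WT array. The same count was not made over all genes.

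Over all 4 arrays, 18 of the 32 members with signal (56.25%) had a highest level at least 4-fold above the lowest, as had 15.5% of all genes with signal. The median range was 2.40 on the log2 scale for the members and 0.86 for all genes. At the top of the range stood Itga8, Lama2, Itga4 and Lama1, and at its foot Itgb5, Itgal, Lama3, Itgav and Itgb1.

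The proteins that link integrins to actin were read as a separate list. Of its 37 adhesion complex genes, 35 were compared, and 4 of them were at least 4-fold lower in DKO than in its WT and 0 higher, with a median log2 ratio of -0.23, where 4.04% of all genes were higher and 4.03% lower. Parvb, an actin-binding partner of integrin-linked kinase, was at 0.507 on the G2KO-labelled array, 0.549 on the WT-labelled array, 0.0120 in DKO and 0.322 in its WT, or 26.8-fold lower in DKO. Tln2, a talin that activates integrins, was 5.55-fold lower and Nedd9, a docking protein of focal adhesions, 5.29-fold lower. Below the WT-labelled array, Tln2 was 3.77-fold and Nedd9 2.06-fold lower in DKO. Against that array, 2 of the 35 were at least 4-fold lower in DKO and 1 higher, beside 912 and 1384 of 23880 genes. Against the G2KO-labelled array, 2 were lower and 0 higher, beside 938 and 1105 of 23799 genes. Of the 34 genes compared, 0 passed 4-fold between the G2KO-labelled array and the WT-labelled array (5.73% of all genes), between the WT arrays (7.39%) and between the G2KO-labelled array and the DKO-matched WT array (2.3%).

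Of 20 other basement membrane genes, 3 were at least 4-fold higher and 1 lower in DKO than in its WT, with a median log2 ratio of 0.02, beside the same shares of all genes (4.04% higher, 4.03% lower). Bcam, a receptor for the laminin alpha 5 chain, was at 0.0574 on the WT-labelled array and 0.109 in DKO and dim on the other arrays, and Lama5 too was higher on that pair of arrays than on the others. Col15a1 was 10.1-fold higher in DKO than in its WT and Col18a1 8.24-fold lower. Col18a1 was at 0.400 on the G2KO-labelled array, 6.03 on the WT-labelled array, 0.209 in DKO and 1.72 in its WT.

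Among 23 genes compared for ligands of integrins, 4 were at least 4-fold lower and 1 higher, with a median log2 ratio of 0.00, again beside 4.04% higher and 4.03% lower over all genes. Postn, a matrix protein of fibroblasts, was 186-fold lower in DKO than in its WT, at 0.116 against 21.6, and stood at 0.566 on the WT-labelled array. Svep1, a ligand of the Itga9 receptor, was 43.5-fold lower in DKO than in its WT. It was at 0.504 on the WT-labelled array, against which DKO was 4.84-fold lower. Cdh1, the epithelial cadherin that binds Itgae, was at least 24.1-fold higher in DKO than in its WT.

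Markers of other cell types moved with the DKO array. All 12 markers of mesothelium, the lining of the body cavities, were well above background in DKO, against 4 to 6 on the other arrays. Of all probes, 72.2% were in DKO and 65.0% to 68.5% elsewhere. Between DKO and its WT, 11 of the 12 were at least 4-fold higher, as 4.04% of all genes were, while Cldn15 was 1.38-fold lower. Relative signals of the 12 summed to 150.2 in DKO, of which Msln made 100.2, and to 0.687 to 1.61 elsewhere. Wt1, a defining gene of this lining, was at 8.96 in DKO and dim on the 3 others. Of 13 fibroblast markers compared, 12 were lower in DKO than in its WT, 5 of them at least 4-fold, as 4.03% of all genes were. The 1 other, Dcn, was 16.6-fold higher, and 4.04% of all genes were at least 4-fold higher. Against the WT-labelled array, 5 were lower in DKO and 8 higher, with a median log2 ratio of 0.82. At least 4-fold, 3 were lower and 6 higher there, beside 912 lower and 1384 higher of the 23880 genes compared. Fibroblast markers summed to 405.1 on the G2KO-labelled array, 268.7 on the WT-labelled array, 267.0 in DKO and 461.3 in its WT, with Pdgfra, Dpt and Lum dim on the WT-labelled array and Dpt alone dim elsewhere. Markers of smooth muscle, a tissue known for Itga1, Itga7, Itga8 and Itga9, summed to 221.5, 368.3, 47.9 and 270.3 in that order. Acta2 and Tagln carry these sums and were lowest in DKO, at 29.6 and 11.6 against 133.2 and 132.0 in its WT. Of the 7 markers of this list compared, 4 were lower and 3 higher in DKO than in its WT. Against the WT-labelled array, 6 of 8 were lower in DKO and 2 higher, with 5 at least 4-fold lower, as 3.82% of all genes were. Against the G2KO-labelled array, 6 of 8 were lower and 2 higher. Myh11, a defining marker, was faint: highest in DKO at 0.0289, and dim on the G2KO-labelled array and the DKO-matched WT array. Epithelial markers summed to between 0.271 and 0.595, with Epcam, Grhl2 and Ovol1 dim on all 4 arrays. The part of these cell types in the differences of the integrin and laminin genes was not tested.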

How the data were processed

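Per the labels, Cy3-labelled RNA of 4 MEF preparations was put on Agilent mouse arrays. The authors deposited the signal intensity of each spot, corrected by Agilent Feature Extraction (10.7.3.1 in the file headers, 10.5.1.1 in the submitters' processing notes) for spatial trends and background. The value table they also deposited holds the same intensity, with a largest log2 difference of 0.

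Control spots and outlier spots were left out (107 to 140 of 43020 per array). The intensity was divided by the array's 75th percentile over all gene spots, spots of a probe were averaged as log2, and for a gene with several probes that with the highest mean was used. Between 65.0% and 72.2% of probes were well above background, 0 were saturated, and the median SD between repeat spots was 0.0581 to 0.0929 (log2). A probe was compared if 1 or both arrays had it well above background. Differences of at least 4-fold were counted; no test was run, because each group has 1 array and 0 residual degrees of freedom are left. The calculation was tested on simulated data.

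The members, gene lists and comparisons were chosen with earlier results of these data known. Members described array by array are those past 4-fold between DKO and its WT, the G2KO-labelled array and its WT, or the WT arrays, and Itgb1, Itgav, Lama5, Lamb1-1 and Lamc1; 1 member, counted in the totals, is not reported here by name or drawn; of each pathway list, the 3 genes with the largest ratio between DKO and its WT are named. Marker lists covered mesothelial, fibroblast, leukocyte, platelet, endothelial, smooth muscle, skeletal muscle, neural and epithelial genes. Alternatives were normexp (offset 50, limma 3.58.1 in R 4.3.3), quantile normalization, other scalings, other filters, thresholds and WT arrays. Python 3.11.15 with pandas 2.3.3 was used. Probe positions are those of the files (mm9); promoter sequences are from RefSeq (GRCm38.p6).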

Additional observations from a re-analysis of the deposited data

How the results depend on the processing

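No paired analysis was possible because each group has 1 array. Of the members past 4-fold between DKO and its WT, all kept their direction under 8 changes of background correction, scaling, filter or probe choice; 91 of 94 values stayed past 4-fold. The 3 that did not were those of Itga1 (-1.99), Itga4 (-0.95) and Lamc3 (1.5), all with normexp, which changes the background correction and adds an offset of 50 to every signal. The count of members lower on the DKO array than on each other array was 4 with normexp, 7 at 2-fold, 3 at 10-fold, 5 with the median over a gene's probes, 4 with only probes well above background on both arrays, and 6 in the other alternatives run. A 2-fold threshold gave 10 members higher in DKO than in its WT, and Itga2 (a limit) and Lamc1 joined the 9 lower at 4-fold. So at 2-fold the members were split almost evenly between higher and lower. A 10-fold threshold left 0 higher, with Itga1, Itga4, Itga8, Itga9, Itga11 and Lama2 lower. Shares over all genes were counted at 4-fold only, so none stands beside the counts at other folds here and below.

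The median of the members between DKO and its WT was -0.20 with only probes well above background on both arrays, -0.20 with the median over a gene's probes and -0.042 against the mean of both WT arrays. For the G2KO-labelled array against its WT, 3 members were higher with normexp or with probes well above background on both arrays, 1 was lower at 10-fold, and the median was 0.22 with quantile normalization and 0.61 without scaling. Against the DKO-matched WT array, 3 were higher and 0 lower, the median turned to -0.29, and Lama2 (-0.58), Lama1 (-0.29) and Itga3 (0.44) changed sign, as did Lama5 (-0.69), Itga3 (-1.34) and Itgb7 (2.53) between DKO and the WT-labelled array. Against the mean of both WT arrays, 1 member was lower and the median was -0.042.

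Between the WT arrays, normexp left 1 member higher, 2-fold gave 12 higher and 7 lower, and 10-fold 1 lower. Itgb4 (-1.96), Itgb7 (1.71) and Lama1 (1.68) fell below 4-fold there with normexp. The median was 0.17 with normexp, scaling to the median or probes well above background on both arrays, 0.13 with the median over probes and 0.60 without scaling. Without scaling, the median of all genes moved from -0.17 to 0.33 in the G2KO comparison, where the share of higher among 4-fold genes went from 64.8% to 80.6%. The cause was not tested. Dim signals limit Itga4, Itga8, Itga2 and Lama1 to bounds.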

Other observations

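Itgbl1, a secreted protein with repeats like those of the integrin beta chains, lies outside the naming rule and was chosen after its values were seen. Its relative signal was 1.68 on the G2KO-labelled array, 0.0641 on the WT-labelled array, 3.97 in DKO and 3.45 in its WT. DKO and its WT differed 1.15-fold, and the WT arrays differed 53.8-fold. Itgb2l, a beta chain gene close to Itgb2, was dim on all 4 arrays.

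Of the remaining marker lists, none had its highest sum in DKO. Platelet markers summed to relative signals of 3.64 on the G2KO-labelled array, 1.01 on the WT-labelled array, 1.53 in DKO and 6.21 in its WT. Endothelial markers summed to 8.39, 7.88, 8.63 and 11.6, skeletal muscle markers to 2.43, 0.299, 1.20 and 3.31, and neural markers to 18.9, 45.6, 9.19 and 26.4.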
